A study of Homo sapiens with 12 samples.

Results

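Ribosome biogenesis and RNA polymerase I were followed through 48 genes, chosen by symbol from both deposited gene tables, which list 25914 genes. All 48 symbols were found, and all 48 are protein-coding genes. The tables came from 12 RNA-seq libraries of 2 human cell lines, with 3 libraries for each line and treatment. HCT116, a colon cancer line, and RPE-1 hTERT, a retinal pigment epithelium line immortalized with telomerase, were labelled wild-type and grown for 24 h with 10 µM Nutlin-3a or with its solvent DMSO. Nutlin-3a blocks MDM2, the ubiquitin ligase that keeps p53 low, and the paper used it to activate p53. HCT116 is not among the cell lines that the paper describes.

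The level of a gene is given here as its base mean, the normalized read count that the authors averaged over libraries. The base mean was the same in both tables for every gene, so it gives 1 pooled level per gene and none for a single line, treatment or library. The tables do not name the libraries behind it, which may include more than these 12, and the depth of each library is unknown. The effect of Nutlin-3a was therefore not analysed here, since the tables hold it only as the authors' own comparison, which was not used. No spread between replicates can be given, and the order of levels below was not tested. For the same reason the labelled cell types could not be checked line by line. The epithelial keratins KRT8 and KRT18 had pooled base means of 138619 and 67572, and the p53 targets CDKN1A and MDM2 had 64448 and 45128. In bulk RNA a pooled level also cannot separate fewer expressing cells from less RNA per cell.

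Ribosomes are assembled in the nucleolus around a precursor RNA that RNA polymerase I transcribes from the ribosomal DNA repeats. Small nucleolar RNAs (snoRNAs) carried in box C/D or box H/ACA particles guide methylation and pseudouridylation of this precursor, and the small and large subunits mature through separate series of assembly factors. The pathway is a target of MYC, which raises it in growing cells, and disturbance of it stabilizes p53 through ribosomal proteins that bind MDM2.

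The 48 genes were among the more abundant transcripts. Their base means had a median of 2409, which lay at percentile 88.2 of all listed genes and at percentile 81.5 of the listed protein-coding genes. Of the 48 genes, 47 lay above the median of all listed genes (149.8 normalized counts) and 44 above that of protein-coding genes (650.6). Base means of 46 genes fell between 500 and 10000. NCL lay above this range and NOP2 below it. Between genes the level is better compared per length, as base mean per kb of all annotated exon sequence. On this scale the median of the 48 genes was 448 normalized counts per kb, against 120.3 for listed protein-coding genes, and 45 of the 48 lay above that value. The 3 genes below it were UTP20, by a small margin, DDX10 and NOP2.

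**Figure D1:**
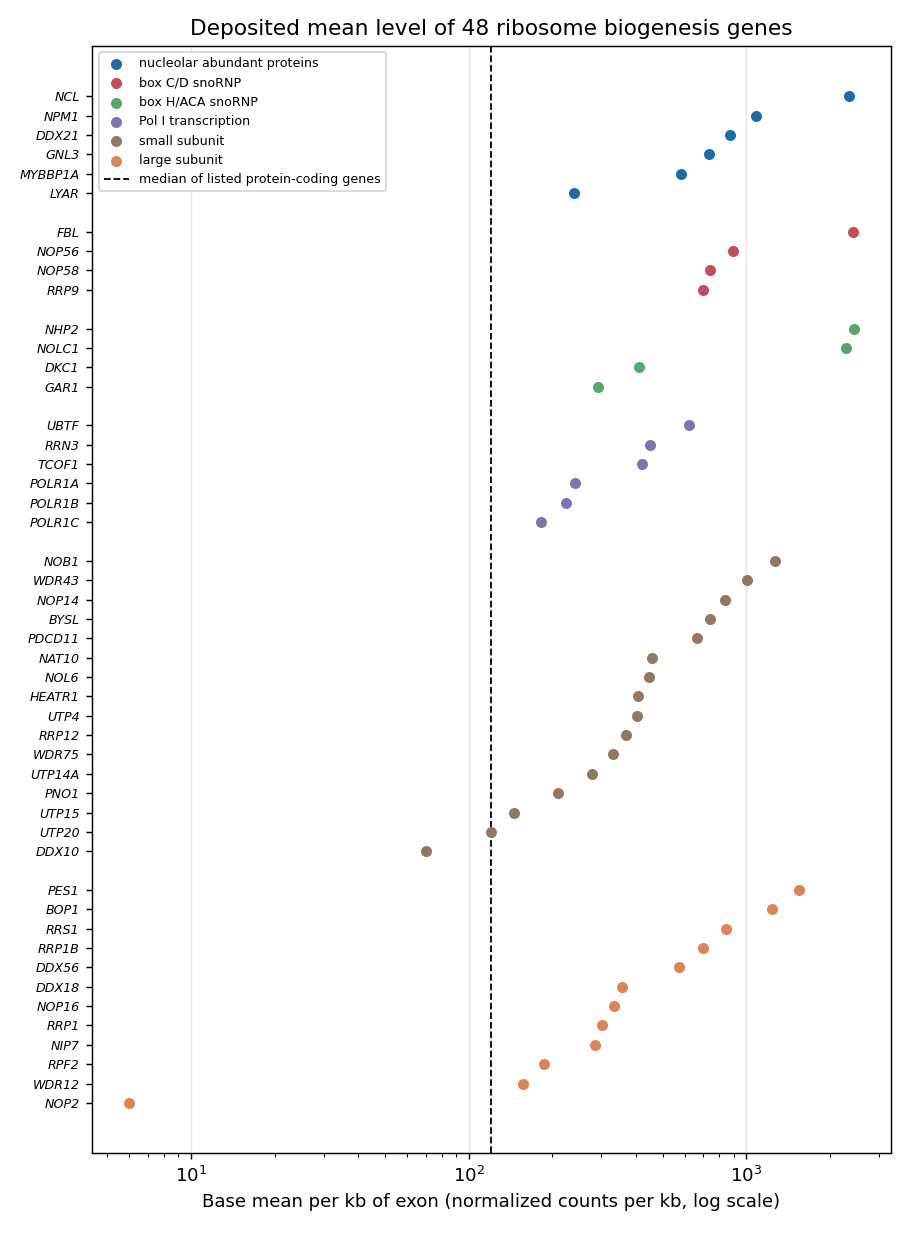
Base mean per kb of exon (x axis, normalized counts per kb, log scale) for the 48 genes (y axis), grouped and coloured by role. Each point is 1 pooled value without a replicate error. The dashed line marks the median of listed protein-coding genes, 120.3, and all points but those of UTP20, DDX10 and NOP2 lie to its right.

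The genes of the RNA polymerase I machinery had a median of 332 normalized counts per kb. UBTF, the factor that bends and opens ribosomal DNA, was highest at 624 per kb (base mean 4414). RRN3, which brings the polymerase to the promoter, had 452 per kb, and TCOF1, the treacle scaffold of ribosomal gene transcription, had 422 per kb. The catalytic subunits POLR1A and POLR1B had 242 and 224 per kb. POLR1C, a subunit shared with RNA polymerase III, had 182 per kb. The order within this group depends on the length used: per kb of the longest coding sequence POLR1C had 966 and RRN3 957, and POLR1B was lowest at 572.

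For genes of the snoRNA particles the medians were higher, 817 per kb for box C/D and 1344 for box H/ACA. DKC1 and GAR1, however, lay within the range of the RNA polymerase I genes. FBL, the methyltransferase of box C/D particles, had 2420 per kb, and its partners NOP56 and NOP58 had 894.5 and 740 per kb. RRP9, the protein of the U3 particle, had 695 per kb. Among the box H/ACA proteins, NHP2 had 2446 per kb, the highest value of the 48 genes. NOLC1, a chaperone that binds both kinds of particle, had 2277 per kb. DKC1, the pseudouridine synthase, had 412 per kb, and GAR1 had 293 per kb. NHP2 and GAR1, whose proteins sit in the same box H/ACA core, thus differed 8.34-fold per kb, and 8.89-fold per kb of coding sequence.

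NCL, the nucleolin gene, had the largest base mean of the 48 genes, 20949, and 2349 per kb. It held 13.2% of the normalized counts of all 48 genes. NCL, NOLC1, NPM1 and DDX21 held 29.7% together. DDX21, an RNA helicase that links RNA polymerase I with rRNA processing, had 873 per kb. GNL3, the nucleostemin GTPase, had 733 per kb, and MYBBP1A, a nucleolar Myb-binding protein, had 584 per kb. LYAR, a nucleolar zinc finger protein, had 240 per kb. The level of NPM1, nucleophosmin, is treated below with its pseudogenes.

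For the small subunit, 16 genes had a median of 405 per kb. NOB1, the endonuclease that makes the mature end of 18S rRNA, was highest at 1266 per kb, whereas its partner PNO1 had 209 per kb. WDR43 (1005 per kb), HEATR1 (407), UTP4 (404), WDR75 (332) and UTP15 (145) belong to the t-UTP complex, which joins the precursor during transcription. The U3 processome proteins NOP14, PDCD11, NOL6 and UTP14A had 840, 667, 444 and 278 per kb. The export factor RRP12 had 367 per kb, the late factor BYSL 737 and NAT10, the RNA cytidine acetyltransferase, 458. UTP20, a long scaffold of 62 exons, had 120.3 per kb, and DDX10, a helicase, had 70.0 per kb. From UTP15 to WDR43 the t-UTP genes spanned 6.92-fold per kb of exon and 3.61-fold per kb of coding sequence. For NOB1 over PNO1 these ratios were 6.06 and 2.96.

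For the large subunit, 12 genes had a median of 346 per kb. PES1, BOP1 and WDR12 form the PeBoW complex of 28S rRNA maturation. PES1 had 1553 per kb and BOP1 1234, while WDR12 had 157. The ratio of PES1 to WDR12 was 9.91 on this scale and 3.36 per kb of coding sequence. RRS1 and RPF2 bring the 5S particle into the precursor and had 842 and 187 per kb. RRP1B and RRP1, paralogs of a yeast processing factor, had 699.7 and 301 per kb. The helicases DDX56 and DDX18 had 571 and 358 per kb, and the assembly factors NOP16 and NIP7 had 334 and 285 per kb. NOP2, the methyltransferase of 28S rRNA, was listed far below the others, with 5.96 per kb and a base mean of 27.9. Without NOP2 the lowest base mean of the 48 genes was 549.8, that of PNO1.

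Further genes of the pathway were taken from a list of 102, all of which were in the tables. They had a median of 285 per kb and a median base mean of 1512. Those of RNA polymerase I had a median of 281 per kb, from TAF1A (101) to POLR2L (2695), a small subunit of all nuclear polymerases. Further snoRNA particle genes had a median of 670 per kb, from SHQ1 (127) to RUVBL2 (1166). The other small subunit genes had a median of 270 per kb, from DDX47 (12.3) to WDR46 (791), and the other large subunit genes one of 399, from PPAN (102) to EIF6 (1147). RNA exosome genes had a median of 213 per kb, from EXOSC8 (46.1) to EXOSC4 (786). In this list, too, a single gene, DDX47, was listed far below the rest, with a base mean of 61.7.

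NOP2 lies at chr12:6556863-6568691 on the minus strand (hg38, GENCODE 44). Another protein-coding gene model of the same strand, ENSG00000285238, runs through it at chr12:6556886-6607367. This model, named here after its values were seen, is not listed in the tables. Whether the annotation that the authors counted on holds this model was not checked. The model held 54.4% of all annotated exon bases of NOP2 and 95.8% of the windows of 101 bases, the sequenced cycles, along the main transcript of NOP2. A read inside such a window lies in exons of both genes. No other gene of the 48 had over 50% of its exon bases in another gene of its strand: 39 had none and 8 had a smaller share, up to 11.3% in RRS1. DDX47 had 36.5% of its exon bases in APOLD1, which was listed at a base mean of 351.

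Over all listed protein-coding genes, the base mean was low where over 50% of the exon bases overlapped in this way. The 12972 genes with no exon base in another gene of the same strand had a median base mean of 707.0, and 22.0% of them lay under 100. For 2470 genes with a share of up to 50% the median was 553 and 22.8% lay under 100, close to the genes without overlap. DDX47, at 36.5%, belongs to this class. In the 251 genes with over 50% and up to 90%, the class of NOP2, the median was 19.0 and 81.7% lay under 100. NOP2 itself had 27.9. The classes were formed by exon overlap alone and were not matched for other properties of the genes. The overlap came from GENCODE and may differ in the annotation that the authors counted on. Whether shared exons account for the low value of NOP2 was not tested, and its base mean is not read here as its expression.

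**Figure D2:**
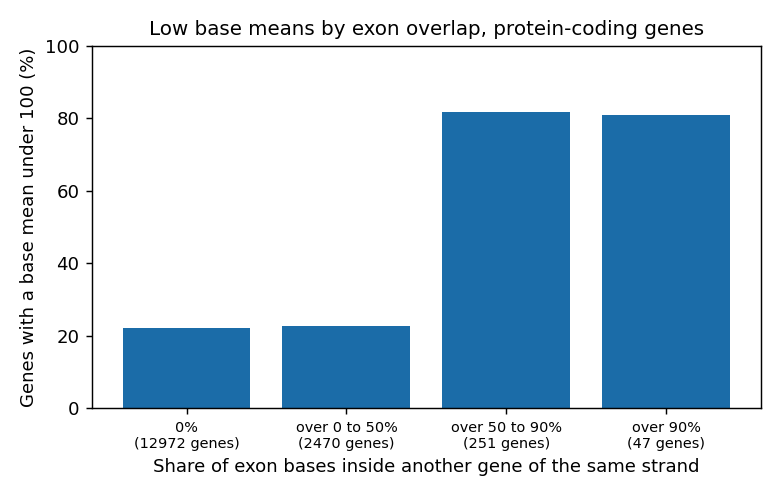
Share of listed protein-coding genes with a base mean under 100 (y axis, percent), by the share of their exon bases inside another gene of the same strand (x axis, number of genes in brackets). The bars stand at 22.0%, 22.8%, 81.7% and 80.9%, and NOP2 belongs to the class over 50 to 90%.

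NPM1 lies at chr5:171387116-171411810 on the plus strand and had a base mean of 8993, or 1082 per kb. The tables list 15 pseudogenes under its name, and 1 of them, NPM1P27, had a base mean of 21234, that is 2.36 times the normalized counts of NPM1. NPM1P27 is an unspliced copy of 830 bases at chr5:93682838-93683667 on the minus strand. Its level per kb of these 830 bases was 25583, whereas the 1082 of NPM1 rests on 8311 bases of annotated exon. Per kb of the longest coding sequence NPM1 had 9281, so the values per kb depend on the length used. The 15 pseudogenes summed to a base mean of 26382, so that NPM1 itself had 25.4% of the 35375 normalized counts under its name. NPM1P39 followed with 2517, NPM1P46 with 1174 and NPM1P24 with 1008. These pseudogenes were named after their values were seen.

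The copy differs little from the gene. Of 830 aligned bases, 819 were identical between NPM1P27 and the main NPM1 transcript (98.7%), in 3 gap-free blocks, and 11 differed. Below are 120 bases of each, transcript bases 249 to 368 of NPM1 inside its coding sequence and bases 98 to 217 of NPM1P27 (chr5:93683451-93683570, minus strand, hg38). Capitals mark the 4 bases that differ, and the other bases of the stretch are the same in both. The stretch was picked as the gap-free 120 coding bases with the most differences, so it differs more than the whole alignment.
NPM1: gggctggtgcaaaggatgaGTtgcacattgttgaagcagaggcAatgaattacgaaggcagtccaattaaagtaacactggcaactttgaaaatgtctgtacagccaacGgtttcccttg
NPM1P27: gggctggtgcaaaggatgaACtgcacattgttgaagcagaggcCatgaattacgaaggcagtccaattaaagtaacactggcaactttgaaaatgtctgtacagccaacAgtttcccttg

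Of the windows of 101 bases along the NPM1 transcript, 19.8% were present letter by letter in NPM1P27, and 29.4% in some gene elsewhere in the genome. With windows of 51 bases the latter share was 59.4%. Per the methods of the paper, which do not name HCT116, the authors kept reads with a unique mapping. The windows were taken from the spliced NPM1 transcript, whereas NPM1P27 is unspliced, so a window across an exon junction of NPM1 is continuous only in the copy. To which gene reads from identical windows were assigned was not tested. Reads that align to both but hold a differing base rest on a few bases, whereas 486 bases of the NPM1 transcript of 1320 lie outside the alignment with NPM1P27. The part of NPM1P27 counts that came from NPM1 RNA was not tested. The levels of NPM1 and NPM1P27 are therefore uncertain.

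**Figure D3:**
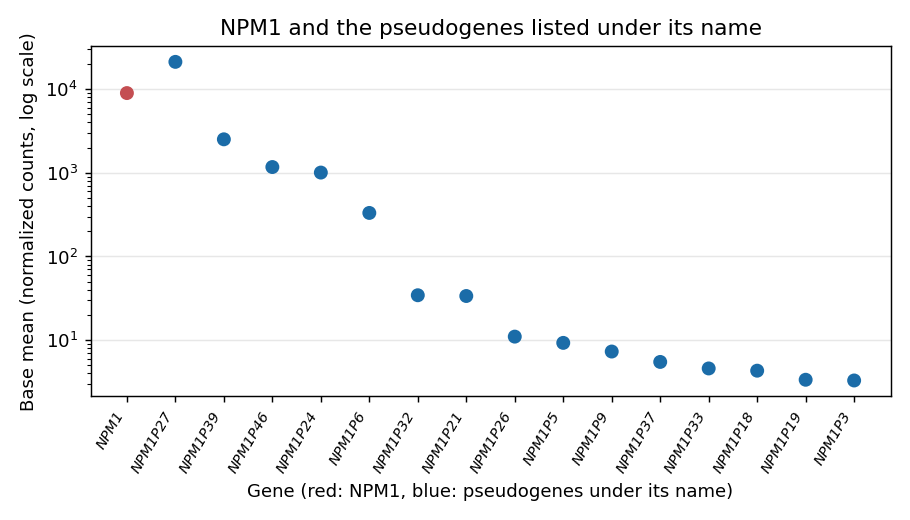
Base mean (y axis, normalized counts, log scale) of NPM1 (red) and of the 15 pseudogenes listed under its name (blue). NPM1P27 lies above NPM1, at 21234 against 8993, and the other 14 lie below it.

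NPM1 was the exception among these genes. Pseudogenes were listed under the names of 11 of the 48 genes, 33 in all, and NPM1P27 alone was above its gene. For RPF2, NHP2, DDX18 and RRN3 the summed pseudogenes reached 0.222, 0.176, 0.130 and 0.106 times the base mean of the gene, and for NCL and NOLC1 0.00330 and 0.00246 times. Over all listed pseudogenes named after a listed gene, 99 of 2424 (4.08%) were above that gene. Of the 48 genes, 41 had no window of 101 bases in a gene elsewhere in the genome, and 26 had none of 51 bases. RRN3 had 19.4% of its windows in other loci, among them the partial copies RRN3P1 and RRN3P3, and its level is uncertain too. Genes of the opposite strand covered 40.7% of the windows of NHP2 (RMND5B) and 22.7% of those of HEATR1 (LGALS8), which counting by strand separates.

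snoRNA genes lay inside 7 of the 48 genes on the same strand (14.6%, 95% Wilson interval 7.25 to 27.2%), as against 253 of 15740 listed protein-coding genes (1.61%). GNL3 held 6, NOP56 5, NOP58 4, NCL 3, WDR43 3, DKC1 2 and POLR1C 1, a small Cajal body RNA. The 6 in GNL3 include unnamed entries that overlap each other, so they are not all separate loci. At least 2 snoRNA genes were present in 6 of the genes (12.5%), against 0.362% of all coding genes. NOP58 held box C/D genes only, NOP56 held 4 of them and 1 box H/ACA gene, and DKC1 held 2 box H/ACA genes. GNL3, NCL and WDR43, whose products are no core proteins of the particles, held box C/D genes too. NCL also held a box H/ACA gene, SNORA75. FBL, RRP9, NHP2 and GAR1 held no snoRNA gene. In the list of 102 further pathway genes there were 6 hosts (5.88%), of which TAF1D held 8 and PPAN and TSR1 2 each.

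The guide RNAs inside NOP56, NCL and WDR43 are shown because these genes combine high levels with several snoRNA genes of the box C/D class. The letters are those of the GENCODE 44 gene, written as DNA (hg38). Capitals mark the letters TGATG near the 5′ end, the core of box C, and CTGA near the 3′ end, box D.
SNORD110 (NOP56, chr20:2654212-2654286, plus strand): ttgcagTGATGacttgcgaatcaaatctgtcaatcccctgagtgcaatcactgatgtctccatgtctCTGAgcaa
SNORD86 (NOP56, chr20:2656097-2656182, plus strand): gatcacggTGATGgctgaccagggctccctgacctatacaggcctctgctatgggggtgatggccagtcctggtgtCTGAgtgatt
SNORD56 (NOP56, chr20:2656624-2656694, plus strand): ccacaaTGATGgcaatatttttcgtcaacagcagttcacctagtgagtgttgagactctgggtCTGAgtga
SNORD57 (NOP56, chr20:2656939-2657010, plus strand): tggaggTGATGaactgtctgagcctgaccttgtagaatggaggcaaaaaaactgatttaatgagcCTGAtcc
SNORD20 (NCL, chr2:231456444-231456523, minus strand): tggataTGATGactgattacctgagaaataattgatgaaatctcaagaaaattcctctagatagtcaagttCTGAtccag
SNORD82 (NCL, chr2:231460371-231460440, minus strand): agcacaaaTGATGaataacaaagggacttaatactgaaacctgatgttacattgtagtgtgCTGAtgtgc
SNORD92 (WDR43, chr2:28913664-28913748, plus strand): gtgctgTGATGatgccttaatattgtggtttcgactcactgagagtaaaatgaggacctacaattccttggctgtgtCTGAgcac
SNORD53 (WDR43, chr2:28927067-28927144, plus strand): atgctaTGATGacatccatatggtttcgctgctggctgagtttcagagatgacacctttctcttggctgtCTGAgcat
SNORD53B (WDR43, chr2:28927983-28928060, plus strand): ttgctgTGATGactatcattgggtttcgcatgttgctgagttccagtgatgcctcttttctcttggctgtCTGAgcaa

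Both boxes stand close to the ends in each of them. Of 17 named box C/D genes inside the 48 genes, 15 had TGATG within the first 20 bases and CTGA within the last 20, and SNORD19 and SNORD19C in GNL3 had box D only. The box H/ACA genes inside NOP56 and DKC1 are longer and end in the ACA triplet, in capitals below. All 4 named ones, including SNORA75 in NCL, which is not printed, held it near the 3′ end.
SNORA51 (NOP56, chr20:2655067-2655198, plus strand): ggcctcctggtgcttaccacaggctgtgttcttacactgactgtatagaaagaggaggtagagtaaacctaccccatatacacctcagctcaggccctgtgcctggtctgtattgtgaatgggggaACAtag
SNORA36A (DKC1, chrX:154768528-154768659, plus strand): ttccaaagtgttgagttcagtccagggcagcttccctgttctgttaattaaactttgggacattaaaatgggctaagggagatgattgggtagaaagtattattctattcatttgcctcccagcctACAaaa
SNORA56 (DKC1, chrX:154774998-154775126, plus strand): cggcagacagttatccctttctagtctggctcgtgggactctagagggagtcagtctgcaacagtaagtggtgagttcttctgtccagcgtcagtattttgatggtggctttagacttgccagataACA

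Few of these short genes have a value in the tables. Of the 24 snoRNA genes, 18 were not listed, which is not a measured level. The other 6 were listed, with base means from 3.03 (SNORD69 in GNL3) to 6.91 (SNORD11 in NOP58). The 3 hosts of these 6 had base means of 2373 (GNL3), 2423 (NOP58) and 20949 (NCL). Over the tables, 99 genes of this kind were listed, with a median of 11.02. All 6 were among the 11 that touch no annotated exon of the host, and of the 13 that overlap a host exon 0 were listed. A read there lies in exons of both genes, as in NOP2. Whether this overlap set the values was not tested. The 6 listed snoRNA genes are 68 (SNORD19) to 88 (SNORD70) bases long, fewer bases than the sequenced cycles. The methods of the paper also describe a size selection of RNA-seq libraries, at a size above these lengths. They give it for poly(A) libraries, whereas the labels here name ribosomal RNA depletion, so whether it applies here is not known. How far RNA this short was captured was not tested. The base means of these snoRNA genes are therefore not read as their levels relative to the hosts.

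Promoter sequences from RefSeq (GRCh38.p14, 250 bases before to 50 after the start) were at hand for 39 of the 48 genes, in 47 promoters. BOP1, RRP12, NOLC1, NOP58, TCOF1, DDX18, RPF2, RRS1 and RRP1B were not among them. The canonical E-box CACGTG, the letters that MYC with MAX and USF bind, reads the same on both strands. It was present in 18 of the 39 genes (46.2%, Wilson interval 31.6 to 61.4%). It was present in 8.77% of all 27305 genes with a promoter and in 12.0% of the 12425 listed protein-coding genes among them. It was present in 0 of the 5 RNA polymerase I genes with a promoter, too few to set against the share of coding genes. FBL and RRP9 code for box C/D proteins, GAR1 for a box H/ACA protein, and DDX21, GNL3, LYAR and MYBBP1A for other nucleolar proteins. The small subunit gave BYSL, NAT10, NOL6, NOP14, PNO1, UTP14A, UTP20, UTP4 and WDR43, and the large subunit NOP2 and PES1.

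The matches were close to the start. Counted from the start at +1, 11 of 18 began downstream of it. A match began within 50 bases on either side in 16 of the 39 genes (41.0%), against 4.91% of listed protein-coding genes. This stretch was not among the planned windows. Downstream of the start alone, 11 genes (28.2%) had a match, against 1.42%. In the 250 bases before the start, however, 6 genes (15.4%, Wilson interval 7.25 to 29.7%) had a whole match, against 10.7%. The excess over other genes thus lay around and just after the RefSeq start. The matches farthest from it were in LYAR, at -64, and in UTP14A, at -241.

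**Figure D4:**
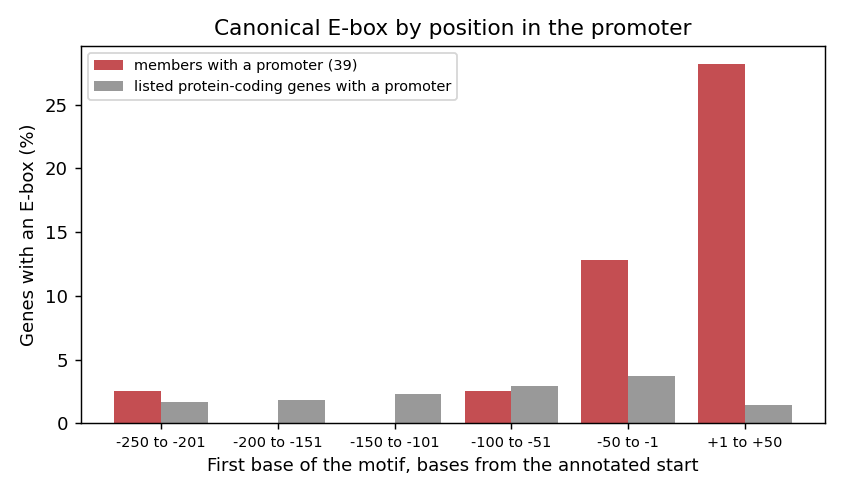
Share of genes (y axis, percent) with the E-box beginning in each stretch of 50 bases of the promoter (x axis, bases from the annotated start), for the 39 genes with a promoter (red) and listed protein-coding genes (grey). From +1 to +50 the red bar is at 28.2% and the grey one at 1.42%, and upstream of -50 the red bars stand at 2.56% or 0.

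Windows of 70 bases, 40 before and 30 after the start, are shown for the 12 genes whose E-box lies whole within them, since they place the motif relative to the start, which follows base 40. Capitals mark the E-box. Coordinates are those of GRCh38.
DDX21 (chr10:68956607-68956676, plus strand): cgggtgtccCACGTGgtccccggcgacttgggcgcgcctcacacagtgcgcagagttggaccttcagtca
FBL (chr19:39846350-39846419, minus strand): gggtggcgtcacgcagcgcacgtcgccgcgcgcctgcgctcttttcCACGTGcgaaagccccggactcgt
GNL3 (chr3:52685992-52686061, plus strand): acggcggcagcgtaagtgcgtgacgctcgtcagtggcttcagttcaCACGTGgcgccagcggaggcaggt
NAT10 (chr11:34105589-34105658, plus strand): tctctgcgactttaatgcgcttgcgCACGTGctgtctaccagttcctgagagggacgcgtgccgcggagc
NOL6 (chr9:33473895-33473964, minus strand): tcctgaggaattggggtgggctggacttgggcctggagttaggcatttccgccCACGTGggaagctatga
NOP14 (chr4:2963377-2963446, minus strand): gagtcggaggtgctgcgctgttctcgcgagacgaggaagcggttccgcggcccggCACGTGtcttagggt
PES1 (chr22:30591881-30591950, minus strand): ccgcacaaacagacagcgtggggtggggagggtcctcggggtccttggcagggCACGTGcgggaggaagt
PNO1 (chr2:68157848-68157917, plus strand): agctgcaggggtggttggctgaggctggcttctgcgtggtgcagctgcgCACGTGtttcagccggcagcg
RRP9 (chr3:51941875-51941944, minus strand): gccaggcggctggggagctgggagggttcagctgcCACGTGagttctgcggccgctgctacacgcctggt
UTP20 (chr12:101280065-101280134, plus strand): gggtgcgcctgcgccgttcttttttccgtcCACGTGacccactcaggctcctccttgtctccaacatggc
UTP4 (chr16:69132609-69132678, plus strand): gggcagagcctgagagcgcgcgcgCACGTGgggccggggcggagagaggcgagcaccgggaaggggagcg
WDR43 (chr2:28894627-28894696, plus strand): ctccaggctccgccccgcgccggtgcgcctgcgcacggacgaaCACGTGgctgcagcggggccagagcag

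In WDR43 the motif began at +4, in FBL and GNL3 at +7, in PNO1 at +10, and in NOL6 and PES1 at +14. In RRP9 it spanned the start, from -5. Genes with the motif had a median of 521 normalized counts per kb (18 genes), and the 21 without it 407, a difference that was not tested. A match describes letters, not binding, and binding of MYC was not measured.

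Other motifs were searched on both strands over the whole window and are given beside their shares in listed protein-coding genes. CCAAT was present in 17 of 39 genes (43.6%) against 43.0%. CCGGAAGT, a site of ETS factors, was present in 8 (20.5%, interval 10.8 to 35.5%) against 8.52%, among them POLR1B, POLR1C and RRN3. GCATGCGC, bound by NRF1, was present in 4 (10.3%) against 5.64%, and TCTCGCGA in 3 (7.69%, interval 2.65 to 20.3%) against 2.46%. TATAAA was present in 1, UTP20 (2.56%, interval 0.454 to 13.2%), against 9.84%. The GC content of the promoters had a median of 61.3%, against 64.1% for listed protein-coding genes.

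The study concerned promoters that face each other, so neighbouring starts were counted. The count depends on which start of a gene is taken. With the outermost annotated end of each gene, a listed gene of the opposite strand started within 1000 bp of 18 of the 48 genes (37.5%, Wilson interval 25.2 to 51.6%), against 23.7% of listed protein-coding genes. The neighbour lay upstream, the divergent arrangement, in 12 of them (25.0% against 14.3%) and downstream, the convergent arrangement, in 6 (12.5% against 9.60%). With the start of the main transcript, which was added after seeing the data, 17 of the 48 genes had such a neighbour (35.4%, interval 23.4 to 49.6%), against 21.1%. All 17 were divergent, against 18.0% of coding genes, and 0 were convergent, against 3.20%. A count of 0 of 48 allows a share of up to 7.41% by the Wilson interval, for annotated starts of listed genes only. The 6 convergent pairs thus rest on the outermost annotated ends and are not read as convergent promoters here. The paper instead paired measured transcription starts, and most of its downstream antisense starts overlapped no annotated start. Starts of that kind were not counted here, so these counts do not give the share of the 48 genes with convergent promoters. In 10 pairs the neighbour was divergent by both starts, among them POLR1A with PTCD3, BOP1 with HSF1, NOP14 with GRK4, PDCD11 with ATP5MD and RRP1B with HSF2BP. These neighbours were named after their values were seen. By the outermost ends no neighbour was itself among the 48 genes.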

How the data were processed

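RNA-seq was measured in 12 libraries of HCT116 and RPE-1 cells, 3 for each line and treatment, grouped by their labels. Whether replicates were separate cultures of HCT116 is not given in the labels. Per the labels, libraries were made from total RNA after ribosomal RNA depletion with a directional kit and sequenced in 101 cycles from a single end. The methods of the paper name poly(A) selection instead. According to them the authors mapped the reads with segemehl to hg38 with an Ensembl annotation and kept unique mappings. These methods do not name HCT116, so whether the steps hold for the HCT116 libraries is not stated there. The authors counted reads on exons by strand with featureCounts and compared treatments with DESeq2, for which the submitters' processing notes give versions 2.0.1 and 1.32.0.

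From each table the deposited signal used was the base mean, for which the authors divided counts by size factors and averaged them over libraries that the tables do not name. The other 5 columns hold the authors' own comparison of Nutlin-3a with DMSO, namely log2 fold change, its standard error, test statistic, p-value and adjusted p-value, and were not used. Counts per library were not used here, so the planned edgeR test could not be run, and the depth and error of each value are unknown. Columns of unmapped per-sample values numbered 0.

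The 48 genes, the role groups, the list of 102 further pathway genes and the comparisons were chosen with earlier results of these data known. Genes named were the 48, the highest and lowest per kb of each further list and snoRNA genes inside the 48. KRT8, KRT18, CDKN1A and MDM2 were given as a check. Most others are marked as chosen after their values were seen. TAF1D, TSR1, APOLD1, RMND5B, LGALS8, RRN3P1 and RRN3P3 were likewise named outside this plan, from the results. Lengths, overlaps and snoRNA genes came from GENCODE 44, in which 25836 of 25914 genes were found by identifier. Shares over protein-coding genes used the 15740 with a length. Windows of 101 bases of each main transcript were searched in all GENCODE transcripts on both strands, and the search was tested on simulated sequences. NPM1 and NPM1P27 were aligned with Biopython 1.88. Intervals are 95% Wilson intervals and cover counting of genes only. No test was made. Python 3.11.15, numpy 2.4.6, pandas 2.3.3 and matplotlib 3.10.9 were used. Alternatives changed the gene length, the background, the strand, the promoter window, the window length and the start of neighbours.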

Additional observations from a re-analysis of the deposited data

How the results depend on the processing

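Of 14 alternatives computed, 8 moved their value by less than 1.5-fold: the protein-coding restriction of the median base mean, both other backgrounds of its percentile, the either-strand count of snoRNA hosts, the median per kb without NOP2, the counts of all and of divergent neighbours by main transcript starts, and the E-boxes within 50 bases of the start. The protein-coding restriction removed no gene, since all 48 are protein-coding, so its value could not move. The percentile could pass this limit only by falling. The median per kb was 698 by the longest transcript and 1084 by the longest coding sequence, whose percentiles among protein-coding genes were 83.7 and 72.0. The convergent neighbours fell from 6 to 0 with main transcript starts. The order per kb depends on the length: NPM1 ranked 8 by all exons and 2 by coding length, and NCL replaced NHP2 as the highest. Only 6 genes held an E-box in the 250 bases before the start. With windows of 51 bases, chosen after seeing the data, 22 genes had windows elsewhere instead of 7. NPM1 with its listed pseudogenes, likewise added, had 35375 normalized counts. No paired analysis was possible because the tables hold no values per library, so the fit with the replicate number as a block, like leaving out a replicate, was not run. The unknown depth limits every level.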
